A study of Mus musculus with 8 samples.

Results

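The genes described here are 10 regulators of heart formation: the transcription factors Nkx2-5, Tbx5, Tbx20, Gata4, Gata6, Hand1, Hand2, Mef2c and Isl1, and the chromatin remodelling subunit Smarcd3. They were taken by gene name from the 55422 rows of single-cell RNA-seq count tables, and each name matched 1 row. The cells came from chimaeric mouse embryos in which ES cells without functional Tet1, Tet2 and Tet3 (Tet-TKO) had been placed into host blastocysts, so that mutant cells developed among WT neighbours. The embryos were collected at E7.5 and E8.5, pooled, and sorted into tdTomato+ Tet-TKO cells and tdTomato- WT host cells. Mutant cells of the later stage fill 4 libraries and host cells 2, and the earlier stage has a single library per genotype. All Tet-TKO cells carried an H2B-tdTomato reporter and had the background C57BL/6J-129Sv, whereas the host was C57BL/6J without the reporter. The Tet deletions, the strain, the reporter and the passage through ES cell culture therefore go together in every library and cannot be told apart. Nothing in the labels says that libraries of a genotype came from separate pools of embryos, so p-values measure only the spread between these libraries, which may be technical.

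The heart forms from mesoderm that leaves the primitive streak and settles in an anterior crescent. Its first part differentiates early into beating myocytes, and a second heart field in the adjoining pharyngeal mesoderm keeps adding cells. Nkx2-5, a homeodomain protein, the T-box proteins Tbx5 and Tbx20, the zinc finger proteins Gata4 and Gata6 and the MADS box protein Mef2c bind the regulatory DNA of heart muscle genes together. The basic helix-loop-helix proteins Hand1 and Hand2 act in the growth of the ventricles, and Hand1 is also used widely in extraembryonic mesoderm and trophoblast. Isl1 is a LIM homeodomain protein of second heart field progenitors. Smarcd3 (BAF60C) brings the BAF chromatin remodelling complex to heart enhancers. TET dioxygenases oxidise 5-methylcytosine in CG dinucleotides, the first step of active DNA demethylation.

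Locations follow for 9 of the 10 genes, without Gata6 (GRCm38, GENCODE M21). Nkx2-5 is on chromosome 17 (26838664 to 26845009, minus strand), Tbx5 on chromosome 5 (119832668 to 119885219, plus), Tbx20 on chromosome 9 (24718138 to 24774303, minus) and Gata4 on chromosome 14 (63198922 to 63271692, minus). Hand1 is on chromosome 11 (57828705 to 57832818, minus), Hand2 on chromosome 8 (57320983 to 57324633, plus), Mef2c on chromosome 13 (83504034 to 83667080, plus), Isl1 on chromosome 13 (116298281 to 116309689, minus) and Smarcd3 on chromosome 5 (24590818 to 24624411, minus). Of the 10 genes, 6 had promoter sequence in the RefSeq table of GRCm38.p6, and 250 bases before each transcription start were read from it. They are shown because CG dinucleotides are the sites at which the deleted enzymes act. These windows differ widely in the number of CG, written in capitals here and searched as the letters CG, which read the same on both strands. The promoter with the most CG among the members (Smarcd3), the one with the fewest (the first annotated start of Mef2c) and one between them (Hand2) are printed 5′ to 3′ on the strand of the gene.
Smarcd3, chr5:24602003-24602252, minus strand: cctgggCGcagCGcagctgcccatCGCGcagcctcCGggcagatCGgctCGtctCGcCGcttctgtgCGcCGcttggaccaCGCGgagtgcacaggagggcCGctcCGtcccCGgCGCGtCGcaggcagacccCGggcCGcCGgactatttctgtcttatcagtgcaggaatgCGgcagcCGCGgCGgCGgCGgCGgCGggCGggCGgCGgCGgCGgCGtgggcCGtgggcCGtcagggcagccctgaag
Mef2c, chr13:83503784-83504033, plus strand: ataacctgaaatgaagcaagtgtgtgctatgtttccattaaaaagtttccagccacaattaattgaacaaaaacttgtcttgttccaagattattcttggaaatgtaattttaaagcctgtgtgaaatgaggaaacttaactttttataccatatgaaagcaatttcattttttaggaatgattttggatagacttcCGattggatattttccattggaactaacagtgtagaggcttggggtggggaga
Hand2, chr8:57320733-57320982, plus strand: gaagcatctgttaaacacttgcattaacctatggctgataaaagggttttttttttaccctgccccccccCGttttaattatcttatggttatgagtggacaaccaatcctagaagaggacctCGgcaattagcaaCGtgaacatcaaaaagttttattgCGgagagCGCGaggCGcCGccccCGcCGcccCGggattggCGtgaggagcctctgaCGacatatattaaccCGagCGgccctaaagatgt
The Smarcd3 window held 38 CG, more than 98.1% of the 32851 promoter windows of the same length, and that of Mef2c held 1, more than 7.87% of them. The 2 other starts of Mef2c had 6 and 4. Hand2 had 15, Isl1 33, Tbx20 22 and Nkx2-5 8, against a median of 6 over all windows (quartiles 2 and 16), of which 92.1% held at least 1 CG. These counts describe sequence only. No methylation was measured in these libraries.

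The E8.5 libraries held 65601218 to 136982886 UMIs (unique molecular identifiers, 1 for each captured transcript), and between 1008 and 9545 cells of each passed the filters. Tet-TKO libraries 1 and 2 resembled each other, as did 3 and 4. Libraries 3 and 4 had fewer and deeper cells (2299 and 1008 cells with medians of 40404 and 68931 UMIs). Values are therefore given by library, and with each pair left out where this bears on a call. tdTomato transcripts matched the sort, with 71.4 to 144 CPM (UMIs of the gene scaled to a common total) in Tet-TKO libraries and 0.443 to 0.959 CPM in WT host libraries of both stages. RNA of the mutated genes could still be detected. At E8.5, the level of Tet1 was 9.92, 10.97, 20.02 and 20.9 CPM in the Tet-TKO libraries, in order, and 22.6 and 20.4 CPM in those of the host, and at E7.5 it was 13.4 CPM for Tet-TKO cells and 27.6 CPM for host cells, so Tet transcript levels do not check the labels, since a gene that makes no working protein can still be transcribed. Tet2 was at 5.55 to 10.5 CPM in Tet-TKO and 4.63 and 4.67 CPM in WT host libraries at E8.5, and Tet3 at 22.5 to 37.5 and 23.1 and 23.2 CPM. The 28 pairs of libraries shared at most 29 cell barcodes, at most 0.404% of the barcodes of the smaller library.

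Cells were clustered without the members and the listed other heart regulators, heart target genes and BAF complex genes, and 7 groups of E8.5 cells were followed. The listed haemoglobin, endothelial and neural genes were not left out. The cardiomyocyte-like class (cluster 23) had all 7 of its markers raised (Tnnt2, Myl7, Myl4, Actc1, Myh6, Myh7 and Ttn) and held 34 to 131 cells in each Tet-TKO library and 181 and 141 in the WT host libraries. The mesenchyme-like class (clusters 14 and 21, led by Postn, Lum and Tdo2), the allantois-like class (clusters 0 and 7, led by Tbx4 and Hoxa10) and the ExE mesoderm-like class (cluster 10, led by Spin2c, Ndnf and Bmp4) are the extraembryonic groups, ExE standing for extraembryonic. No cluster met the marker rule for pharyngeal mesoderm. A sub-cluster led by Tbx1, Lefty2, Fgf10, Six2 and Foxc2, called the Lefty2/Tbx1 sub-cluster, had the highest summed level of the 6 pharyngeal markers of the 7 groups (255 CPM in WT cells, against 42.4 to 152 CPM in the others) and was chosen for this after its genes had been seen. Its paraxial and somitic markers were higher still (741 and 303 CPM), so it is called by its genes. Another sub-cluster, of Alx1, Npr3, Sfrp5 and Aldh1a2, and 1 more of Mab21l2, Tnc, Wnt2 and Hand2os1, are likewise called Alx1/Npr3 and Mab21l2/Tnc.

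**Figure D1:**
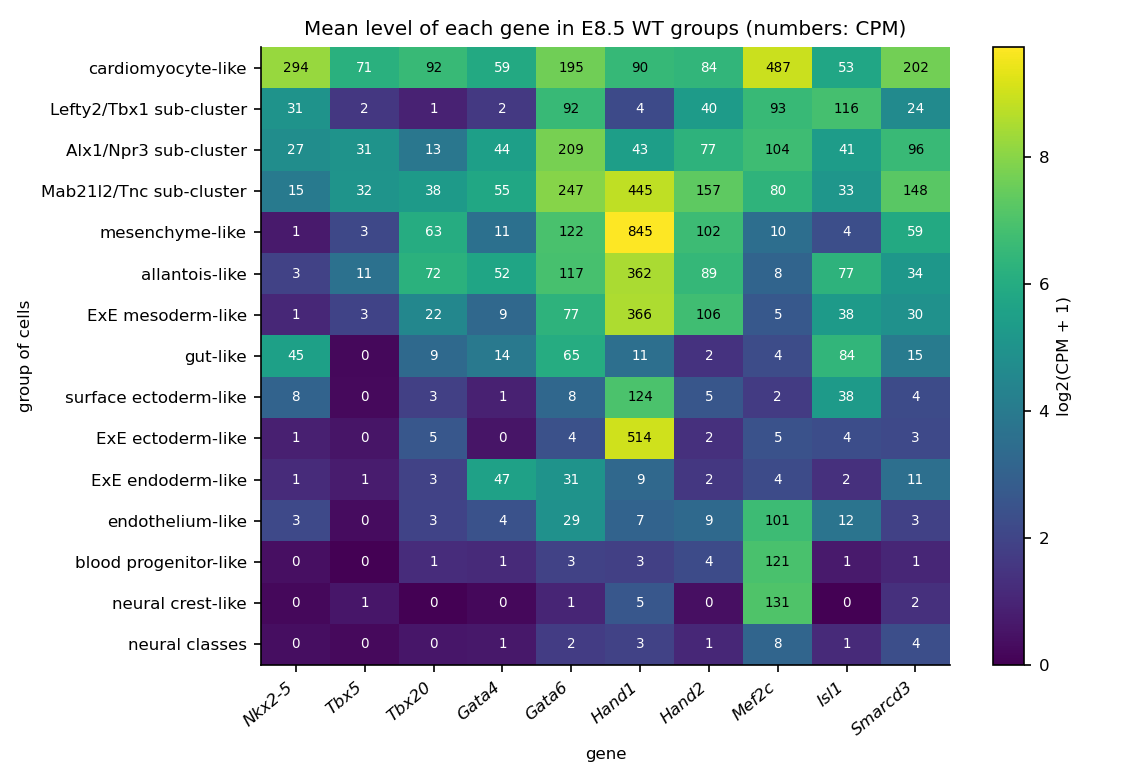
Mean level of each of the 10 genes (columns) in WT host cells at E8.5 for 15 groups of cells (rows), as the mean CPM of the WT libraries in each cell and as a colour for log2(CPM + 1). Nkx2-5, Tbx5, Tbx20, Gata4, Mef2c and Smarcd3 are highest in the cardiomyocyte-like class, Isl1 in the Lefty2/Tbx1 sub-cluster, Gata6 and Hand2 in the Mab21l2/Tnc sub-cluster and Hand1 in the mesenchyme-like class.

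In WT host cells at E8.5 some members were highest in the cardiomyocyte-like class and others in other mesodermal groups, and several were shared between groups. The levels below are means of 2 libraries over 29 groups of cells that cover the embryo, and they are a description, since the groups were formed from the same cells. Nkx2-5 stood at 294 ± 7.85 CPM (SD, n = 2) in the cardiomyocyte-like class, and the next group was gut-like at 45.0 CPM, followed by the Lefty2/Tbx1 and Alx1/Npr3 sub-clusters at 30.6 and 26.5 CPM, whose libraries overlapped. Mef2c had 487 ± 47.7 CPM in the cardiomyocyte-like class. The groups after it, from the neural crest-like class at 131 CPM to the Lefty2/Tbx1 sub-cluster at 92.7 CPM, overlapped from one to the next. Tbx5 had 70.6 ± 10.8 CPM, ahead of the Mab21l2/Tnc and Alx1/Npr3 sub-clusters (31.7 and 31.3 CPM, which overlapped), and was near 2 CPM in the Lefty2/Tbx1 sub-cluster. Smarcd3 had 202 ± 1.23 CPM, then 148 CPM in the Mab21l2/Tnc and 96.4 CPM in the Alx1/Npr3 sub-cluster, with no overlap between these 3.

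The remaining genes were less bound to heart muscle. Tbx20 had 92.0 ± 14.8 CPM in the cardiomyocyte-like class and 72.4 and 63.2 CPM in the allantois-like and mesenchyme-like classes, and the allantois-like class gave 39.9% of all its UMIs in WT cells. Gata4 was alike in the cardiomyocyte-like class, the Mab21l2/Tnc sub-cluster and the allantois-like class (59.2, 55.1 and 51.7 CPM, each overlapping the next). Gata6 was highest in the Mab21l2/Tnc sub-cluster (247 CPM), with 209 and 195 CPM in the Alx1/Npr3 sub-cluster and the cardiomyocyte-like class, which overlapped. Hand2 was highest in the Mab21l2/Tnc sub-cluster at 157 CPM, and the cardiomyocyte-like class came sixth at 84.0 CPM. Hand1 had 845 CPM in the mesenchyme-like class, 514 CPM in the ExE ectoderm-like class and 445 CPM in the Mab21l2/Tnc sub-cluster, none of which overlapped, and 90.1 CPM in the cardiomyocyte-like class. Isl1 was highest in the Lefty2/Tbx1 sub-cluster at 116 CPM, ahead of the gut-like and allantois-like classes (83.6 and 77.3 CPM, which overlapped), and had 53.5 CPM in the cardiomyocyte-like class. The cardiomyocyte-like class was 1.88% of WT and 2.69% of Tet-TKO cells. It gave 47.0% of the Nkx2-5 UMIs in WT and 52.4% in Tet-TKO cells, and 32.1% and 37.1% of the Mef2c UMIs. All these shares overlapped between genotypes, with 1.36% to 4.18% of Tet-TKO and 1.56% and 2.19% of WT cells in the class. The Alx1/Npr3 sub-cluster was larger in every Tet-TKO library (3.38% to 8.13% against 1.34% and 1.86%). So were the ExE mesoderm-like class (3.77% to 8.08% against 0.952% and 1.84%), the mesenchyme-like class and the Mab21l2/Tnc sub-cluster. The Lefty2/Tbx1 sub-cluster and the allantois-like class overlapped.

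Genes whose levels ran most alike to a member over the E8.5 WT sums were named from 9271 candidates by Pearson's r of log2(CPM + 1), over 59 sums of 30 groups that share 2 libraries and their depths. For Nkx2-5 they were Myl7 (r = 0.81), Myh7 and Myl4, all sarcomere proteins, and for Mef2c Cap2 (0.69), Dusp27 and Unc45b. For Tbx5 they were Wnt2 (0.91), Gata5 and Hand2os1, for Tbx20 Bves (0.86), Dok4 and Gata5, and for Smarcd3 Lsp1 (0.87), Csrp2 and Gata5. Gata5 thus came up for 3 members. For Hand2 they were Hand2os1 (0.96), 5033428I22Rik and Foxf1, and Hand2os1 and Hand2 lie side by side on opposite strands, so their counts are separate only as far as the counting used strand. For Hand1 they were Phlda2 (0.86), Sap30l and Dok4, for Gata4 Prdm6 (0.78), Tbx2 and Gpx3, for Gata6 Csrp2 (0.88), Igf2r and Zfp9, and for Isl1 Rgs5 (0.79), Has2 and Tgfb2. Among the members the most alike were Gata4 and Gata6 (0.85), and the least alike Hand1 and Mef2c (-0.08).

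In the cardiomyocyte-like class Nkx2-5, Mef2c and Gata6 had log2 fold changes within 0.1 of 0, the other members ranged from -0.59 to 0.64, and no member was called. The test was edgeR's quasi-likelihood test on UMI sums, with a gene called at a Benjamini-Hochberg adjusted p of 0.01 over all genes and a log2 fold change of at least 1 in size, and here 91 of 10110 genes (0.9%) were called. Nkx2-5 had 329, 301, 251 and 283 CPM in the Tet-TKO libraries (always in the order 1 to 4) against 289 and 300 CPM in WT host cells, which lay within the Tet-TKO range (log2 fold change of Tet-TKO over WT -0.06 ± 0.17, SE, adjusted p = 0.93). Mef2c had 513, 435, 418 and 536 CPM in Tet-TKO and 521 and 453 CPM in WT cells, again overlapping (-0.08 ± 0.16, adjusted p = 0.885).

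Hand2 and Gata4 lay higher and Hand1 and Smarcd3 lower in all Tet-TKO libraries of the class. Hand2 had 140, 121, 117 and 165 CPM in Tet-TKO and 88.0 and 79.9 CPM in WT cells, so every Tet-TKO library lay above both WT libraries (0.64 ± 0.18, adjusted p = 0.124). Gata4 did so too, with 69.7, 67.0, 92.1 and 102 CPM against 56.2 and 62.3 CPM (0.44 ± 0.18, adjusted p = 0.336). Hand1 and Smarcd3 lay below. Hand1 had 72.7, 82.3, 52.5 and 71.3 CPM against 94.1 and 86.0 CPM (-0.43 ± 0.21, adjusted p = 0.416), and Smarcd3 had 177, 181, 167 and 156 CPM against 201 and 203 CPM (-0.29 ± 0.15, adjusted p = 0.456). These 4 of 10 members had libraries of the genotypes that did not overlap, as had 23.2% of all genes tested. None of the 4 passed the test.

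Tbx5, Tbx20, Gata6 and Isl1 overlapped between genotypes in this class. Tbx5 had 42.2, 27.9, 45.4 and 78.5 CPM in Tet-TKO and 63.0 and 78.3 CPM in WT cells (-0.58 ± 0.29, adjusted p = 0.431), its highest and lowest values both being Tet-TKO. Isl1 had 53.5, 41.2, 15.7 and 39.2 CPM against 53.5 in both WT libraries, and library 3 was the lowest (-0.59 ± 0.39, adjusted p = 0.571). Tbx20 was 69.2 to 160 CPM in Tet-TKO cells, highest in libraries 3 and 4, against 102 and 81.6 CPM. Gata6 was 183 to 241 CPM against 206 and 184 CPM. The median log2 fold change of the 10 members was -0.07, and of all genes 0.01. The haemoglobin genes, RNA of red blood cells, differed far more in these same sums (2433 and 7659 CPM summed in WT, 6.70 to 65.6 CPM in Tet-TKO cells, with all 7 listed genes found in WT cells). In the 6 other groups their sums were 471 to 1590 CPM in WT and 5.19 to 52.3 CPM in Tet-TKO cells, and 4 to 6 of the genes were called lower in each of the 7 groups. Endothelial markers were low but also lower in the Tet-TKO sums of the cardiomyocyte-like class, at 4.31 to 5.58 CPM summed against 15.4 to 24.3 CPM, with Pecam1, Cdh5, Esam, Plvap and Cldn5 (5 of 6) not overlapping and Tie1 at 0 in all 4 Tet-TKO libraries and 1 WT library. Haematoendothelial markers summed to 39.7 to 78.1 CPM in its Tet-TKO and 83.1 to 87.7 CPM in its WT libraries. The part of these genes in the members' values was not tested.

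**Figure D2:**
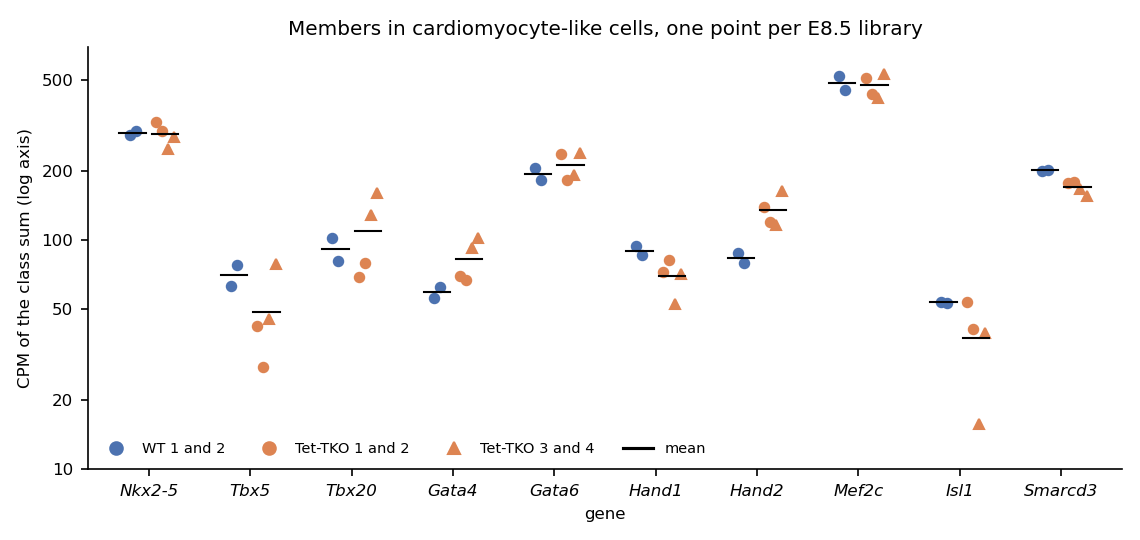
Levels of the 10 genes in the cardiomyocyte-like class at E8.5 (CPM, log axis), with 1 point for each of 4 Tet-TKO and 2 WT host libraries and bars at the genotype means. Hand2 and Gata4 lie above and Hand1 and Smarcd3 below the WT libraries in all 4 Tet-TKO libraries, and the other genes overlap.

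The share of cells with at least 1 UMI was read after thinning each cell to 5000 UMIs, since depth differed. In the cardiomyocyte-like class Mef2c was found in 85.9% ± 1.3 (SD, n = 2) of WT and 85.6% ± 2.5 (SD, n = 4) of Tet-TKO cells. The neural classes (forebrain, midbrain and hindbrain, and neural tube-like), given for comparison, had it in 3.46% and 3.67% of cells. Mef2c had 13.2 CPM in WT cells of the midbrain and hindbrain-like class, so these shares need not be background. Nkx2-5 was found in 69.4% and 72.2%, with 0.137% and 0.180% in neural classes. Hand2 was found in 34.1% ± 1.1 of WT and 47.7% ± 4.9 of Tet-TKO cells, from 41.8% to 53.3% by library against 33.3% and 34.9%, and in 0.505% and 1.21% of neural cells. Tbx5 was found in 27.1% ± 3.3 and 18.5% ± 5.5, with 11.9% to 25.3% against 24.8% and 29.5%, which overlap. Without thinning these shares were 94.7% and 95.6% for Mef2c, 86.8% and 94.0% for Nkx2-5, 58.2% and 81.9% for Hand2 and 44.8% and 45.2% for Tbx5 (WT and Tet-TKO). After thinning Hand1 was found in 21.9% of WT and 22.2% of Tet-TKO cells, so its share was not lower, unlike its level. Smarcd3 was found in 59.8% and 55.3% and Gata4 in 26.6% and 33.3%. Between 31 and 169 cells of each library had the 5000 UMIs, of 34 to 181. Median depths before thinning were 9962 to 65905.5 UMIs in the cardiomyocyte-like class and 11808 to 71085.5 UMIs in the neural classes.

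In the Lefty2/Tbx1 sub-cluster, which held the second heart field factor Isl1 at its highest, none of the 8 members tested was called (0.586% of all genes). Mef2c and Hand2 lay higher in every Tet-TKO library, and libraries did not overlap for 20.7% of all genes. Mef2c had 166, 114, 152 and 169 CPM in Tet-TKO and 107 and 78.2 CPM in WT libraries (0.70 ± 0.20, adjusted p = 0.172). Hand2 had 78.2, 47.3, 88.6 and 130 CPM against 43.3 and 36.0 CPM (1.08 ± 0.31, adjusted p = 0.176), and libraries 3 and 4 were the highest. Hand2 was called with libraries 1 and 2 left out (1.41, adjusted p = 0.00194) and with no filter on low counts (1.07, adjusted p = 0.000153). These fits called 2.79% and 0.991% of all genes. Gata4 and Tbx20 rested on few UMIs in this group. Gata4 had 18, 17, 12 and 4 UMIs in Tet-TKO and 5 and 2 in WT libraries, and Tbx20 had 8, 6, 8 and 12 against 3 and 0, which is at most 11.1 and 10.8 CPM in any library. At 1.04 to 3.01 and 0 to 1.81 CPM in WT cells, they passed the filter on low counts only through Tet-TKO libraries, which fixed their direction, so nothing is read from it. Isl1 itself had 138, 110, 197 and 218 CPM against 120 and 113 CPM, overlapping through library 2 (0.48 ± 0.22, adjusted p = 0.527). Nkx2-5, Gata6 and Smarcd3 overlapped. Tbx5 and Hand1, at under 7 CPM in every library, were not tested. Libraries 3 and 4 gave only 29 and 15 cells here, and the class differs in makeup too, with somitic markers at 27.8 to 249 CPM in Tet-TKO and 273 to 333 CPM in WT cells, and haematoendothelial markers at 82.5 to 314 CPM and 40.9 to 57.4 CPM, whose part was not tested.

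In the Alx1/Npr3 sub-cluster Tbx5, which patterns the posterior heart field and limb, was lower in every Tet-TKO library. It had 19.0, 10.8, 14.8 and 10.6 CPM against 31.3 and 31.2 CPM (-1.20 ± 0.27, adjusted p = 0.105). It was called with no filter on low counts (-1.15, adjusted p = 0.000251) and with libraries 1 and 2 left out (-1.39, adjusted p = 4.69e-05). These fits called 1.11% and 5.31% of all genes. Hand2 had 109, 112, 116 and 112 CPM against 86.3 and 66.9 CPM (0.54 ± 0.15, adjusted p = 0.186). These were the 2 of 10 members without overlap (22.4% of all genes), and none was called (0.364% of all genes). Mef2c differed between the Tet-TKO libraries more than between genotypes, with 99.2 CPM in library 1, 40.3, 41.0 and 37.4 CPM in the others and 125 and 82.5 CPM in WT cells (-0.93 ± 0.42, adjusted p = 0.487). Without library 1 it was called (-1.44, adjusted p = 0.00794), as were 0.483% of all genes. Smarcd3 had 124, 87.4, 35.1 and 42.2 CPM against 114 and 79.0 CPM, so that libraries 3 and 4 alone lay below WT. It was called when 1 and 2 were left out (-1.40, adjusted p = 3.02e-06), the fit with 5.31% of all genes called. Cardiomyocyte markers summed to 642 to 742 CPM in the WT and 127 to 370 CPM in the Tet-TKO cells of this sub-cluster, with 5 of the 7 higher in WT cells and Myh6 at 0 in both WT libraries, and their part was not tested.

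In the Mab21l2/Tnc sub-cluster, the group with the most Gata6 and Hand2, 1 of 10 members had libraries that did not overlap (22% of all genes), namely Nkx2-5 with 27.0, 29.0, 20.7 and 34.3 CPM against 20.3 and 10.2 CPM (0.79 ± 0.32, adjusted p = 0.386). None was called (0.585% of all genes). Gata4 split by library pair, with 34.4 and 28.0 CPM in libraries 1 and 2 and 99.0 and 108 CPM in 3 and 4, on either side of the WT values of 57.7 and 52.5 CPM. Tbx5 was split as well, with 14.2 and 7.25 against 32.3 and 26.0 CPM, and 28.9 and 34.5 CPM in WT cells. It was called when libraries 3 and 4 were left out (-1.48, adjusted p = 0.00429, with 1.68% of all genes called) and not otherwise by leaving out a pair. With the replicate number as a block, a fit that compares libraries 1 and 2 of each genotype, it was called too (-1.48, adjusted p = 5.44e-06, edgeR), as were 2.25% of all genes. That fit leaves 1 residual degree of freedom, so its p-values rest largely on a spread borrowed from other genes. Hand1 went the other way, with 499 and 435 CPM in libraries 1 and 2 and 293 and 281 CPM in 3 and 4, against 436 and 454 CPM. Cardiomyocyte markers summed to 1206 to 1541 CPM in the WT and 497 to 684 CPM in the Tet-TKO cells of the sub-cluster. Tnnt2 (451 and 514 CPM against 184 to 234 CPM), Myl7, Myl4, Actc1 and Ttn, 5 of the 7, did not overlap between genotypes, Myh6 was at 0 in 1 WT library, and their part was not tested.

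**Figure D3:**
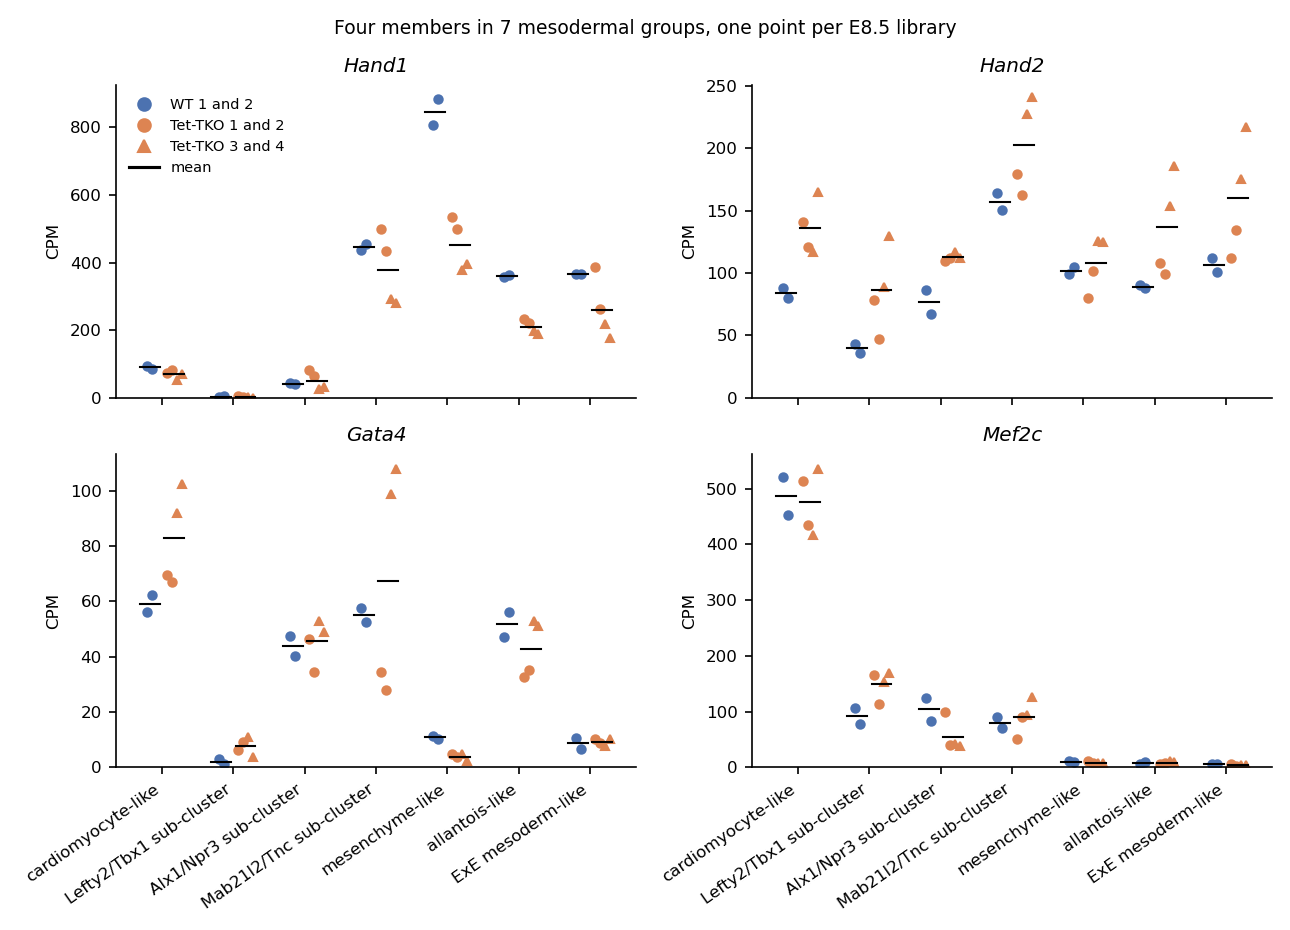
Levels of Hand1, Hand2, Gata4 and Mef2c (CPM, linear axes that differ between genes) in the 7 groups at E8.5, with 1 point per library, triangles for Tet-TKO libraries 3 and 4, and lines at the genotype means. Hand1 lies below WT in all 4 Tet-TKO libraries of the cardiomyocyte-like, mesenchyme-like and allantois-like classes, Hand2 lies above in the cardiomyocyte-like and allantois-like classes and the Lefty2/Tbx1 and Alx1/Npr3 sub-clusters, and Gata4 in the Mab21l2/Tnc sub-cluster splits by library pair.

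In extraembryonic mesoderm the members with the lowest p-values were Hand1 and Gata4. In the mesenchyme-like class Hand1 had 535, 499, 379 and 396 CPM in Tet-TKO and 808 and 883 CPM in WT libraries, with a wide gap between genotypes (-0.94 ± 0.20, adjusted p = 0.0379). Gata4 had 4.77, 3.63, 4.82 and 2.34 CPM against 11.4 and 10.4 CPM (-1.48 ± 0.30, adjusted p = 0.0351). Neither reached the adjusted p of 0.01, and no member was called of 9 tested (1.09% of all genes). DESeq2, the other tool run, called 1 of them, Gata4 (-1.49, adjusted p = 0.00637), and 2.46% of all genes. By edgeR Gata4 was called with no filter on low counts (-1.45), without Tet-TKO libraries 3 and 4 (-1.34, adjusted p = 0.0068) and without 1 and 2 (-1.62, adjusted p = 0.000974), and Hand1 and Smarcd3 only without 1 and 2 (-1.24 and -1.05). These fits called 2.28%, 2.83% and 8.2% of all genes, in the order given. With the replicate number as a block Gata4 (-1.36, adjusted p = 1.79e-06) and Isl1 (1.05, adjusted p = 0.00207) were called by edgeR, as were 4.63% of all genes. As said above for the block, these p-values rest largely on a spread borrowed from other genes. Isl1 had 5.71 to 8.70 CPM in Tet-TKO and 6.59 and 1.39 CPM in WT libraries, which overlap. With 1 WT library that low, Isl1 passed the filter on low counts by way of the Tet-TKO libraries, so nothing is read from its call. Smarcd3 (50.8, 53.4, 30.1 and 32.2 CPM against 59.5 and 58.5 CPM) and Tbx5 (1.17 to 2.85 CPM against 3.55 and 3.01 CPM) were also lower in all 4 Tet-TKO libraries, so that 4 of 9 members did not overlap (28.6% of all genes). Hand2 and Gata6 overlapped, with 80.0 to 125 CPM against 98.8 and 105 CPM for Hand2.

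The makeup of the mesenchyme-like class differed between genotypes. Cluster 14 made up 73.5% of its cells in Tet-TKO and 30.9% in WT libraries, and cluster 21 the rest. Within cluster 21 Hand1 was 367 to 540 CPM in Tet-TKO and 921 and 941 CPM in WT libraries (-1.05, adjusted p = 0.0156), and within cluster 14 it was 382 to 539 CPM against 556 and 786 CPM (-0.60, adjusted p = 0.438), so every Tet-TKO library lay below both WT libraries in either cluster. Gata4 had -1.05 in cluster 14 (adjusted p = 0.613) and -1.004 in cluster 21 (adjusted p = 0.216). Under other clusterings (a coarser resolution, no correction between libraries, or the listed genes among the variable ones) Gata4 was -0.30, -0.47 and -0.28 over the class of the same name. That class was not the same set of cells, with a shared-over-union of 0.516, 0.576 and 0.657. It was also the closest match of the Mab21l2/Tnc sub-cluster, where Gata4 was far higher, so these values do not follow the same cells. Smarcd3 had 0.25 and -0.06 within the clusters, against -0.52 over the class. Hand2 and Gata6 overlapped within both clusters, with Tet-TKO means above those of WT cells. For Hand2 these were 95.7 against 73.2 CPM in cluster 14 and 139 against 115 CPM in cluster 21. For Gata6 they were 111 against 85.6 CPM and 148 against 138 CPM. Tbx5 was not lower within either cluster, with 0.367 to 0.614 CPM in Tet-TKO and 0 in both WT libraries in cluster 14, where it was not tested, and 3.56 to 9.36 CPM against 4.19 and 5.41 CPM in cluster 21 (0.27 ± 0.46, adjusted p = 0.845), so the sign over the class was not kept within its clusters. Cardiomyocyte markers summed to 260 to 279 CPM in the WT and 47.7 to 64.9 CPM in the Tet-TKO cells of the class, with Myh7 at 0 in both WT libraries and Myh6 and Ttn under 1 CPM in every library, and their part was not tested.

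In the allantois-like class Hand1 lay lower in every Tet-TKO library as well. It had 232, 220, 198 and 190 CPM in Tet-TKO and 359 and 364 CPM in WT libraries (-0.78 ± 0.14, adjusted p = 0.0342). Hand2 had 108, 99.0, 154 and 186 CPM against 90.6 and 87.6 CPM, so here both Hand factors lay outside the WT range in opposite directions (0.59 ± 0.21, adjusted p = 0.262). Nkx2-5 was low everywhere in this class (3.42 to 6.31 CPM against 2.30 and 3.26 CPM), and Smarcd3 had 22.8 to 31.4 CPM against 32.6 and 36.2 CPM. These 4 of 10 members did not overlap (27.7% of all genes), and none was called (0.666% of all genes). With the replicate number as a block Tbx5 (-1.02, adjusted p = 8.37e-08) and Nkx2-5 (1.05, adjusted p = 0.000149) were called by edgeR, as were 3.91% of all genes. Here too the p-values under the block rest largely on a spread borrowed from other genes. Tbx5 had 4.62 to 10.4 CPM in Tet-TKO and 7.55 and 14.9 CPM in WT libraries, which overlap. Gata4, Gata6, Tbx20 and Isl1 overlapped. Isl1, with 65.7 to 88.1 CPM against 89.1 and 65.4 CPM, had a log2 fold change of -0.02 ± 0.19. This class joins clusters 0 and 7, in which Isl1 differed in sign. In cluster 0 Isl1 had 51.9 to 67.0 CPM in Tet-TKO and 36.6 and 43.4 CPM in WT libraries (0.50 ± 0.18, adjusted p = 0.249), and in cluster 7 it had 98.9 to 138 CPM against 120 and 138 CPM (-0.20 ± 0.15, adjusted p = 0.702). Gata6 had 130 to 146 CPM against 159 CPM in both WT libraries of cluster 0 (-0.23 ± 0.10, adjusted p = 0.344) and 0.24 ± 0.17 in cluster 7 (adjusted p = 0.714). In cluster 0 Nkx2-5 had 4.53 to 7.93 CPM against 2.49 and 3.99 CPM. Smarcd3 had 30.7 to 38.8 CPM there against 49.1 and 50.6 CPM. In cluster 7 both overlapped, with 0 to 2.83 against 1.89 and 2.10 CPM and 6.16 to 17.4 against 8.99 and 14.9 CPM. Among markers of other cells in this class, Plvap, of endothelium, was called lower (7.83 and 9.14 CPM in WT and 1.52 to 3.09 CPM in Tet-TKO cells), the muscle actin Actc1 had 72.1 and 107 CPM against 18.7 to 37.6 CPM, and the haemoglobin gene Hba-x had 290.4 and 669.7 CPM against 1.90 to 14.9 CPM. The 7 cardiomyocyte markers summed to 128 to 142 CPM against 39.8 to 99.6 CPM, and the part of these was not tested.

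In the ExE mesoderm-like class no member was called either (0.109% of all genes), and 1 of 9 had libraries that did not overlap (21.1% of all genes). This was Gata6, with 91.6 to 98.8 CPM in Tet-TKO and 89.4 and 63.8 CPM in WT libraries, the gap being small beside the distance between the WT libraries. Hand1 had 388, 262, 217 and 177 CPM against 368 and 365 CPM, so library 1 stood above WT (-0.49 ± 0.29, adjusted p = 0.735). Hand2 had 112, 135, 176 and 217 CPM against 112 and 100 CPM (0.54 ± 0.22, adjusted p = 0.615). Both genes ran in order of the library pairs, with 3 and 4 lowest for Hand1 and highest for Hand2. Cardiomyocyte markers summed to 35.2 to 68.7 CPM in WT and 10.6 to 20.6 CPM in Tet-TKO cells here, and their part was not tested.

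Markers of still other cells were lower in Tet-TKO sums of several groups. ExE endoderm markers did not overlap in any of the 7 groups, at 15.7 to 69.8 CPM summed in WT and 0.759 to 13.9 CPM in Tet-TKO libraries. Neural markers (Sox1, Sox2, Pax6, Otx2 and Six3) summed to 15.1 to 18.9 CPM in WT and 1.33 to 11.7 CPM in Tet-TKO libraries of the allantois-like class, with Sox2 (6.45 and 11.3 CPM against 0.190 to 5.71 CPM) and Otx2 (4.24 CPM against 0.949 to 2.89 CPM) not overlapping and a median log2 fold change of -0.92. They did not overlap in the mesenchyme-like class (20.3 to 20.6 against 4.19 to 12.0 CPM), the ExE mesoderm-like class (11.5 to 12.6 against 2.08 to 5.47 CPM) and the Alx1/Npr3 sub-cluster (13.1 to 20.97 against 3.54 to 12.0 CPM) either. Endothelial markers summed lower in every Tet-TKO library of the allantois-like class (4.25 to 5.50 against 11.6 to 14.04 CPM), the ExE mesoderm-like class and the Mab21l2/Tnc sub-cluster as well. The part of these genes was not tested.

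**Figure D4:**
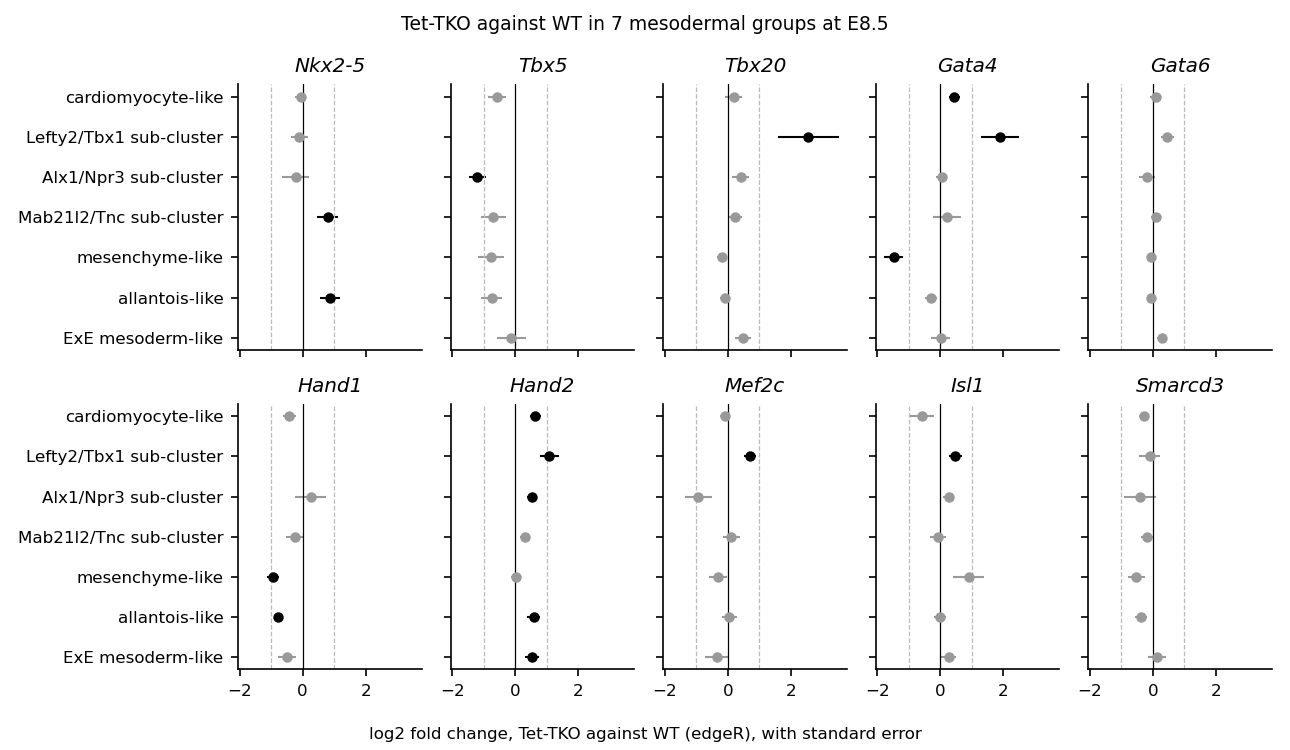
Log2 fold changes of the members in Tet-TKO over WT cells for the 7 groups at E8.5, with standard errors, dashed lines at the 2-fold limits, and black for an unadjusted p under 0.05 (edgeR). Hand2 is above 0 in 7 of 7 groups and Tbx5 below 0 in the 6 in which it was tested, though not within the single clusters of the mesenchyme-like class.

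Set side by side over the groups, the fold changes of a few members kept one sign. Hand2 was positive in 7 of 7 groups, from 0.02 ± 0.16 to 1.08 ± 0.31. It was also positive in every other class in which it was tested. Among these were cluster 26 (1.22 ± 0.32, 71.0 CPM in WT cells) and the haematoendothelial progenitor-like class (0.93 ± 0.19, 18.6 CPM). The sign is therefore not particular to the 7 groups, and in classes near 0 in WT cells nothing is read from it. Tbx5 was negative in 6 of 6, from -1.20 ± 0.27 to -0.13 ± 0.46. One of these was the mesenchyme-like class, where the sign did not hold within its clusters. Hand1 was negative in 5 of 6 groups and Smarcd3 in 6 of 7, which for the mesenchyme-like class turned to 0.25 within cluster 14. In the allantois-like class Smarcd3 overlapped between genotypes within cluster 7. The groups share libraries, so these are not independent, and the share of all genes that keep one sign was not counted. Hand1 was lower in libraries 3 and 4 than in 1 and 2 in 7 of 7 groups and Smarcd3 in 6 of 7, and Hand2, Tbx20 and Tbx5 were higher in 5 of 7. In most groups the directions of Hand2, Hand1 and Smarcd3 thus ran further in libraries 3 and 4, whereas that of Tbx5 did not. The library pairs also differed over all genes. The share of all genes that split by pair was not counted, so these splits are not read as particular to the members. Over all 26 classes tested at E8.5, 45 of 182 tests of members had an unadjusted p under 0.05, as had 11.9% of all gene tests in these classes, and 0 were called, as were 0.59% of all gene tests, the lowest adjusted p of a member being 0.0186 (edgeR). The 45 include members near 0 in WT cells that passed the filter on low counts only through Tet-TKO libraries, such as Gata4 and Tbx20 in the Lefty2/Tbx1 sub-cluster and Hand2, Gata4 and Tbx20 in the erythroid-like class, so nothing is read from that count. The lowest adjusted p was that of Hand2 in the erythroid-like class, with 14.3 to 16.5 CPM in 3 Tet-TKO and 3.105 and 4.38 CPM in WT libraries. DESeq2 called 1 in the 7 groups, Gata4 in the mesenchyme-like class, where it called 2.46% of all genes.

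Whether the effect on a member differed between the cardiomyocyte-like class and another group was tested with the class by genotype term. Gata4 differed from the mesenchyme-like class by 1.85 ± 0.30 (log2, adjusted p = 0.00262, where 1.06% of genes passed an adjusted p of 0.01), with higher levels in all 4 Tet-TKO libraries of the cardiomyocyte-like and lower ones in all 4 of the mesenchyme-like class. Against each mesenchyme cluster alone the difference was 1.39, with an adjusted p of 0.473 for cluster 14 and 0.0316 for cluster 21. Mef2c differed from the Lefty2/Tbx1 sub-cluster by -0.77 ± 0.14 (adjusted p = 0.00981, 0.237% of genes), with overlap in the cardiomyocyte-like class and higher Tet-TKO levels in the sub-cluster. This rested close to the limit, since the adjusted p was 0.0206, 0.0128 and 0.013 without Tet-TKO library 1, 3 or 4. No member passed against the Alx1/Npr3 (0.0908% of genes) or Mab21l2/Tnc sub-cluster (0.121%) or the allantois-like (0.279%) or ExE mesoderm-like class (0.0444%). Without Tet-TKO library 1, Mef2c passed against the Alx1/Npr3 sub-cluster (1.27, adjusted p = 0.000465). Gata4 came nearest, against the allantois-like class (0.69 ± 0.15, adjusted p = 0.045).

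Other genes of the heart network were read from lists. Of 22 tested other heart regulators in the cardiomyocyte-like class 1 was lower and none higher, where 0.663% of all genes were called lower and 0.237% higher. It was Gata5, a relative of Gata4 and Gata6, with 46.2, 53.0, 34.3 and 48.3 CPM in Tet-TKO and 104 and 98.7 CPM in WT cells (-1.22 ± 0.20, adjusted p = 0.0098). Of 18 tested genes that these factors act on in heart muscle, 3 were lower and none higher, with a list median of -0.60 (0.01 for all genes). Nppa, which codes for atrial natriuretic peptide, had 0, 0, 14.5 and 4.31 CPM against 106 and 213 CPM. Tnni3, cardiac troponin I, had 10.5 to 21.1 CPM against 161 and 225 CPM, and Csrp3, a Z-disc protein, had 162 to 235 CPM against 400 and 631 CPM. The summed cardiomyocyte markers were 17088 to 26203 CPM in Tet-TKO and 29531 to 32673 CPM in WT libraries of the class. Myl7 (6342 to 7887 CPM against 11198 to 11605 CPM) and Actc1 (2471 to 5443 CPM against 7504 to 9029 CPM) did not overlap between genotypes. Myh7 had 390.4 to 1129 CPM in Tet-TKO and 356 to 410 CPM in WT libraries, and Tnnt2, Myl4, Myh6 and Ttn overlapped between genotypes. In the same sums 4 of 10 members did not overlap between genotypes, with Hand2 and Gata4 higher and Hand1 and Smarcd3 lower (23.2% of all genes). The others, among them Nkx2-5, Mef2c and Gata6, overlapped. Of the 12 BAF complex genes, partners of Smarcd3, none was called in any of the 7 groups, and their median was -0.06 in the cardiomyocyte-like class. Elsewhere Tnnc1 and Tnni1 were lower in the Mab21l2/Tnc sub-cluster (2 of 10 target genes, and 0.424% of all genes) and Tnni1 and Wnt2 in the mesenchyme-like class (2 of 9, and 0.872% of all genes). The largest changes of the cardiomyocyte-like class were outside the network, with Rps13-ps1, Rps3a3 and Rps15a-ps8 higher, which are copies of ribosomal protein genes whose reads can be split with their parents, and Hba-a2, Hbb-y and Hba-x lower.

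At E7.5, before a heart tube, there was 1 library of each genotype, so the levels have exact 95% Poisson intervals for counting error only and no replicate check. Mef2c was the member with the clearest gap. In the paraxial mesoderm-like class (led by Foxc2, Tcf15 and Alx1, and with Tbx1 and Myl7 among its leading genes) it had 69.9 CPM (64.0 to 76.3) in 508 WT cells and 24.8 CPM (20.3 to 29.9995) in 175 Tet-TKO cells. It was also lower in cluster 1 (led by Acta2, Tdo2 and Tagln) with 18.5 CPM (15.3 to 22.2) against 6.39 CPM (5.06 to 7.95), in cluster 11 (Lmo1, Six2 and Fgf10) with 15.7 CPM (10.3 to 23.0) against 5.43 CPM (4.15 to 6.97), and in the haematoendothelial progenitor-like class with 12.5 CPM (8.67 to 17.3) against 2.66 CPM (1.15 to 5.25). In the allantois-like class it was at 1.72 and 0.781 CPM. At E8.5, where the groups are others, the log2 fold change of Mef2c was lowest, at -1.54 ± 0.42, in the presomitic and caudal mesoderm-like class (edgeR adjusted p = 0.247), followed by -1.26 ± 0.36 in a sub-cluster of Meox1 and Tcf15 (adjusted p = 0.232) and -1.16 ± 0.50 in cluster 25 (adjusted p = 0.54). It was -0.08 in the cardiomyocyte-like class and highest, at 0.93 ± 0.46, in cluster 13 (adjusted p = 0.328, edgeR). None of these passed the test, and the stages were not compared by a test.

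**Figure D5:**
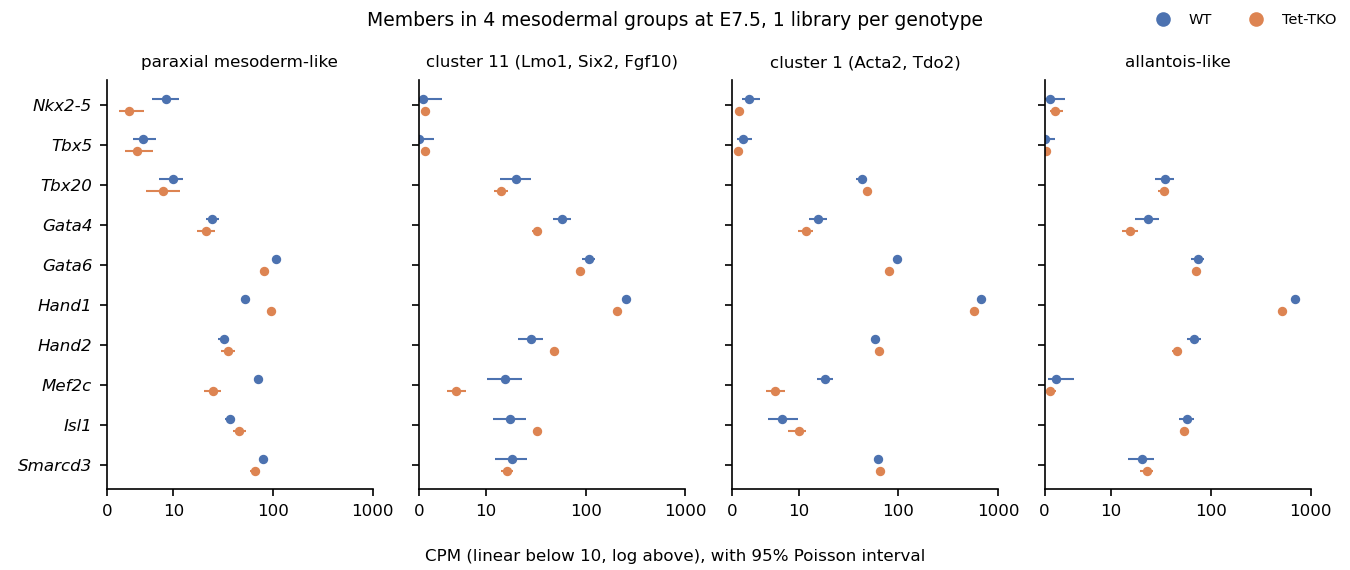
Levels of the members at E7.5 (CPM, an axis that is linear below 10 and logarithmic above) in 4 mesodermal groups, 1 Tet-TKO and 1 WT host library, with exact 95% Poisson intervals of the counts. Mef2c lies lower in the Tet-TKO library of the paraxial mesoderm-like class and of clusters 1 and 11, without overlap of the intervals.

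Of the other members at E7.5, Nkx2-5 was at most 12.5 CPM in any group of WT cells, in the haematoendothelial progenitor-like class, with 8.92 CPM (6.87 to 11.4) in WT and 3.30 CPM (1.81 to 5.54) in Tet-TKO cells of the paraxial mesoderm-like class, and Tbx5 at most 5.43 CPM. Hand1 was at 691 CPM (658 to 726) in WT and 521 CPM (505 to 537) in Tet-TKO cells of the allantois-like class, and at 670 CPM (649 to 691) and 569 CPM (556 to 582) in cluster 1. In the paraxial mesoderm-like class it went the other way, with 52.7 CPM (47.5 to 58.3) in WT and 95.6 CPM (86.5 to 105) in Tet-TKO cells. Gata4 had 58.0 CPM (47.0 to 70.8) against 32.4 CPM (29.2 to 35.9) in cluster 11. Hand2 and Isl1 were higher in Tet-TKO cells there, with 28.4 CPM (20.9 to 37.7) in WT and 47.9 CPM (43.9 to 52.1) in Tet-TKO cells for Hand2 and 17.5 CPM (11.7 to 25.1) and 32.6 CPM (29.3 to 36.1) for Isl1. Gata6 had 108 CPM (101 to 116) in WT and 81.9 CPM (73.5 to 91.0) in Tet-TKO cells of the paraxial mesoderm-like class, and Tbx20 had 43.0 and 48.6 CPM and Smarcd3 63.2 and 65.6 CPM in cluster 1. These compare 2 libraries, not the genotypes.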

How the data were processed

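Single-cell RNA-seq (10x Genomics 3′ v3 chemistry) was measured in 8 libraries of sorted cells. Per the labels, the study's methods and the file headers, the authors aligned the reads to mm10 with Cell Ranger, with tdTomato added to the annotation, and what they deposited are unnormalized UMI counts for each gene in each barcode. The methods and the header name different Cell Ranger versions. The 10 members and the lists were chosen with earlier results of these data known.

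Barcodes under 1500 UMIs, or over 30% mitochondrial or 35% ribosomal counts, were dropped. Cells were clustered per stage from 2500 variable genes (50 components, mutual nearest neighbours across libraries, Leiden resolution 2, sub-clusters at 0.5) and named from markers. The members and the listed other heart regulators, heart target genes and BAF complex genes were left out of the variable genes. Doublets were not removed, and an alternative removed 0.8% per 1000 barcodes. Counts were summed per group and library of at least 10 cells (15 to 1621 cells and 1083586 to 24235930 UMIs per sum in the 7 groups). CPM is the gene's count scaled to the total UMIs of its sum. E8.5 genotypes were compared with edgeR 4.0.16 (R 4.3.3; glmQLFit, filterByExpr, TMM, Benjamini-Hochberg over all genes), calling at adjusted p 0.01 and a log2 fold change of 1. Class differences used the class by genotype term with the library as a block and adjusted p 0.01 alone. DESeq2 1.42.0 was an alternative. There are 15 ways to split the libraries into 4 and 2, and a 2-sided exact rank-sum test on them cannot go below p = 0.133. On simulated data for the cardiomyocyte-like class (10136 genes), 73.3% of changes of 1.5 and 100% of changes of 3 (log2) were recovered, with 3 false calls. The simulated libraries varied independently, without the likeness within pairs of Tet-TKO libraries, and no smaller change was simulated. The recovery therefore does not bear on changes as small as those of the members in this class (-0.59 to 0.64). E7.5 was not tested. Intervals cover counting error only. Python 3.11.15 was used with leidenalg 0.10.2 and scipy 1.17.1.

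Genes named were the members, called genes of the lists (at most 5 per list and group), the 3 genes most alike to each member, with a highest WT mean of at least 20 CPM, and the 3 largest changes each way in the cardiomyocyte-like class. The alternatives tried covered the tool, scaling, filters, clustering, doublets and libraries.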

Additional observations from a re-analysis of the deposited data

Results flagged for a closer look

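In the Alx1/Npr3 sub-cluster, Tet-TKO library 1 stood far from the other 3 for Mef2c, with 99.2 CPM against 37.4 to 41.0 CPM, and for Nkx2-5, with 38.3 CPM against 15.6 to 19.0 CPM. In the ExE mesoderm-like class, Isl1 stood apart in Tet-TKO library 3, with 63.1 CPM against 42.3 to 44.7 CPM, and Tbx20 in Tet-TKO library 2, with 24.8 CPM against 33.2 to 33.8 CPM. These 4 came from 62 sets of 4 libraries with at least 100 UMIs, and chance alone flags about 1 in 20 of such sets.

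The effect of the genotype differed between groups for 2 members by the class by genotype test. That of Mef2c was lower in the cardiomyocyte-like class than in the Lefty2/Tbx1 sub-cluster by a log2 difference of -0.77. This no longer passed without Tet-TKO library 1, 3 or 4 (edgeR adjusted p = 0.0206, 0.0128 and 0.013) or with the Tet-TKO libraries summed in pairs (adjusted p = 0.0106). That of Gata4 was higher than in the mesenchyme-like class by 1.85, which did not pass against either mesenchyme cluster alone.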

How the results depend on the processing

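The 16 fold changes of members with an unadjusted p under 0.05 in the 7 groups (edgeR) were followed under the alternatives that could be run. They kept their direction in all 316 values, and 11 passed the threshold that had not. They were picked from these same libraries for a low p, so a kept sign is no support. Smarcd3 and Tbx5 in the mesenchyme-like class, whose signs turned within clusters, are not among them. No member was called in the cardiomyocyte-like or ExE mesoderm-like class under any alternative. In the Lefty2/Tbx1 sub-cluster 1 member (Hand2) was called with no filter on low counts and 1 without Tet-TKO libraries 1 and 2. In the Alx1/Npr3 sub-cluster 1 (Tbx5) was called with no filter, 0 to 1 with a library left out (Mef2c without Tet-TKO 1) and 3 without libraries 1 and 2. In the Mab21l2/Tnc sub-cluster 1 (Tbx5) was called without libraries 3 and 4. In the mesenchyme-like class 1 (Gata4) was called by DESeq2, with no filter and without libraries 3 and 4, and 3 (Smarcd3, Gata4 and Hand1) without libraries 1 and 2. Of all genes these settings called 0.991% and 2.79% in the Lefty2/Tbx1, 1.11%, 0.483% and 5.31% in the Alx1/Npr3 and 1.68% in the Mab21l2/Tnc sub-cluster, and 2.46%, 2.28%, 2.83% and 8.2% in the mesenchyme-like class, in the order given. The cause was not tested.

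With the replicate number as a block, 1 of 10 members was called in the Mab21l2/Tnc sub-cluster (Tbx5), where 2.25% of all genes were, 2 of 9 in the mesenchyme-like class (Gata4 and Isl1; 4.63%) and 2 of 10 in the allantois-like class (Tbx5 and Nkx2-5; 3.91%). As above, nothing is read from the call of Isl1. Per the study's methods, pooled chimaeras were sorted into both fractions, but no label ties a library number to a pool, so whether the numbers pair the libraries is not settled. Deviations of same-numbered libraries correlated at -0.09 to 0.23. The 2 WT libraries were centred on their mean, so other-numbered ones gave the mirror image by construction (-0.23 to 0.09). These values therefore do not decide the pairing. Tet-TKO libraries 3 and 4 have no WT partner number and do not inform the genotype under the block. The fit then leaves 1 residual degree of freedom, so small p-values under the block rest largely on a spread borrowed from other genes.

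The Mef2c difference between classes (-0.77) was -0.82 with the Tet-TKO libraries summed in pairs, no longer past the threshold, and -0.85 to -0.71 with a library left out. The number of members with a difference against the Lefty2/Tbx1 sub-cluster was then 0 in pairs and 0 to 1 with a library left out, and against the Alx1/Npr3 sub-cluster 0 to 1. The Gata4 difference was 1.39 against cluster 14 or cluster 21 alone, with 0 members past the threshold. Shares of cells moved with depth by construction. Without thinning and at 2500 UMIs they were 94.7% and 67.0% (WT) and 95.6% and 65.5% (Tet-TKO) for Mef2c, 86.8% and 49.5% and 94.0% and 51.0% for Nkx2-5, 58.2% and 19.6% and 81.9% and 28.7% for Hand2, and 44.8% and 14.97% and 45.2% and 11.2% for Tbx5.

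At Leiden resolution 1, without correction between libraries or with the listed genes among the variable ones, no cluster matched the Lefty2/Tbx1 or Mab21l2/Tnc sub-cluster at a shared-over-union of 0.3, and in some of these settings none matched the Alx1/Npr3 sub-cluster or the ExE mesoderm-like class, so these give no value. Gata4 in the class named mesenchyme-like was -0.30, -0.47 and -0.28 in these 3 settings. The class was matched by name, at a shared-over-union of 0.516, 0.576 and 0.657, so its cells were not the same. The sub-clusters, the single clusters, the library pairs left out and the sub-cluster class differences were chosen after seeing the data. The 15 to 82 cells per group of Tet-TKO library 4 limit its precision.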
